A study of Homo sapiens with 4 samples.

Results

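LIPG, LRP1B and RDH5 are 3 of the 38 genes in the deposited gene table of an RNA sequencing study of the human colorectal cancer line HCT116, an established cell line. They were chosen by symbol, as the genes of the table that act on lipoproteins or retinoids. Cells that overexpressed NCBP2 were compared with vector control cells, labelled PCDH control in the sample labels and EV in the table. There were 2 libraries in each group, both made from total RNA of cells grown with 10% serum. The sources used here do not give the promoter that drives NCBP2, the number of clones or whether the libraries of each group were separate cultures, so the spread between libraries may be technical. All 38 genes (100%) are marked significant and up in the authors' deposited table. The 3 genes were therefore selected on the same NCBP2 to control comparison that is described here, and their differences are given as descriptions without a test.

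NCBP2 is the smaller partner in the complex that binds RNA caps in the nucleus, where it holds the methylguanosine cap of new transcripts, and the complex takes part in their splicing, export and turnover. LIPG encodes endothelial lipase, a secreted enzyme that cleaves phospholipids mainly of high-density lipoproteins, and the study's title names its mRNA as a target of stabilisation by NCBP2. LRP1B encodes a very large cell-surface receptor related to LRP1, of a family that binds and internalises lipoproteins and other ligands. RDH5 encodes a short-chain dehydrogenase of the endoplasmic reticulum that oxidises cis-retinol and is best known from the retinal pigment epithelium, where it takes part in the visual cycle.

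The 3 genes differ widely in structure, and stretches of the 3′ UTR are shown because the study's title concerns the stability of LIPG mRNA. The AU-rich letters ATTTA are the core of a class of 3′ UTR elements known to shorten the life of mRNAs, and TATTTAT is an extended form that contains ATTTA. Only the mRNA strand was searched, in the annotated principal transcript of each gene in GENCODE 29 on GRCh38, and the letters are DNA letters of the annotated transcript. A match is a description of the letters and not a site shown to act. LIPG had 5 matches to TATTTAT and 14 to ATTTA, and the 5 longer matches are shown from 5′ to 3′ with the match in capitals:
LIPG site 1 (chr18:49592707-49592735, plus strand): agtgagttgtaTATTTATacacctggctt
LIPG site 2 (chr18:49592777-49592805, plus strand): atttggaagacTATTTATttctcgtgtat
LIPG site 3 (chr18:49593847-49593875, plus strand): gatccaattacTATTTATttaaaattgac
LIPG site 4 (chr18:49594489-49594517, plus strand): ctaccaattacTATTTATtaaaagggaaa
LIPG site 5 (chr18:49597953-49597981, plus strand): aaagcctcaacTATTTATtgtgagggaga

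LRP1B and RDH5 had no TATTTAT in the 3′ UTR. For comparison with LIPG, the ATTTA match of RDH5 and the 3 matches of LRP1B nearest its stop codon are shown in the same way:
RDH5 site 1 (chr12:55724581-55724607, plus strand): caaggactttgATTTAtttctgccccc
LRP1B site 1 (chr2:140232950-140232976, minus strand): actacagtacaATTTAcaacaatgctg
LRP1B site 2 (chr2:140232478-140232504, minus strand): gcaatagttatATTTAggtggtagaac
LRP1B site 3 (chr2:140232136-140232162, minus strand): atattttcaagATTTAatatgagcaac

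The LIPG sites began 2196, 2266, 3336, 3978 and 7442 bases after the stop codon, so sites 1 and 2 lie close together and site 5 far downstream. The principal LIPG mRNA is 10441 bases long, of which 8660 bases are 3′ UTR and 1500 bases are coding sequence. That 3′ UTR is longer than those of 98.8% of 19920 protein-coding genes with a principal transcript. Among the 1039 genes with a 3′ UTR of at least 5000 bases, 80.0% held TATTTAT and 13.9% held at least as many matches as LIPG. These counts were not corrected for length, and that set includes 3′ UTRs shorter than the 8660 bases of LIPG. The share therefore does not show whether LIPG is rich in TATTTAT for its length. Per length, LIPG had 1.62 ATTTA per kb of 3′ UTR, close to the median of 1.55 over 17931 genes with a 3′ UTR of at least 100 bases. The number of ATTTA matches in LIPG thus goes with a long 3′ UTR, at a density near the median. A median density of TATTTAT over genes was not computed.

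LRP1B was the opposite in layout, with 13797 of its 16535 bases in the coding sequence and a 3′ UTR of 1763 bases. It held 9 ATTTA matches, or 5.11 per kb, more than 90.8% of genes with a 3′ UTR of at least 100 bases. The LRP1B matches that begin 1250 and 1254 bases after the stop codon overlap each other, and they are not among those shown above. RDH5 has a short mRNA of 1269 bases, with 954 coding bases and a 3′ UTR of only 160 bases. A single ATTTA in so short a 3′ UTR gives 6.25 per kb, above 94.4% of genes with a 3′ UTR of at least 100 bases. That density rests on 1 match. Over all genes with a 3′ UTR of at least 100 bases, 68.1% held ATTTA and 30.6% held TATTTAT. The 3 genes thus share no common 3′ UTR length. In density of ATTTA, LRP1B and RDH5 lay well above LIPG, which was near the median.

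**Figure D1:**
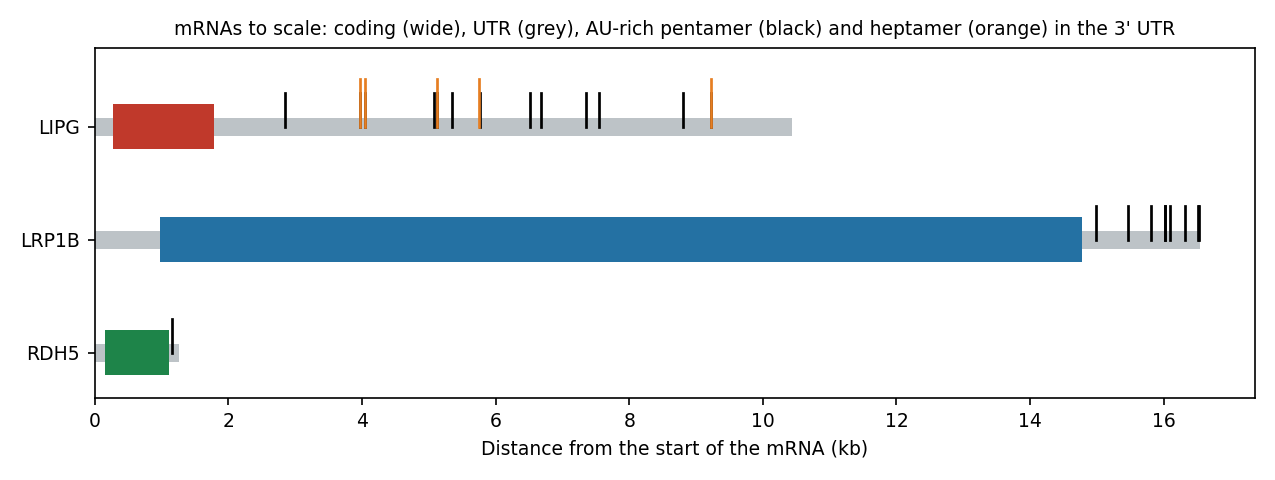
Principal mRNAs of LIPG, LRP1B and RDH5 drawn to scale, with the distance from the start of the mRNA in kb on the horizontal axis. Wide bars are coding sequence, grey bars are UTRs, black lines mark the AU-rich pentamer in the 3′ UTR and orange lines the heptamer that contains it. The 14 pentamers of LIPG spread over 8660 bases, whereas the 9 of LRP1B lie within 1763 bases.

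In GRCh38, the plus-strand gene LIPG (ENSG00000101670) occupies positions 49560699 to 49599182 of chromosome 18, a span of 38484 bp with 10 exons in the principal transcript. LRP1B (ENSG00000168702) lies on chromosome 2 from 140231423 to 142131701 on the minus strand. Its span of 1900279 bp with 91 exons exceeds that of nearly all protein-coding genes, whose median is 27152 bp. RDH5 (ENSG00000135437) lies on chromosome 12 from 55720367 to 55724705 on the plus strand, with a span of 4339 bp and 5 exons. No other annotated gene overlaps LIPG. Of the exonic sequence of RDH5, 68.2% (2035 of 2983 bp) is shared with the readthrough gene BLOC1S1-RDH5 on the same strand, so the level of RDH5 depends on how shared reads were assigned. Of the exonic sequence of LRP1B, a sense-overlapping transcript, AC078882.1, covers 349 of 17040 bp (2.05%), and a small RNA entry covers 99 bp.

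NCBP2, the overexpressed gene, checks the labels. It had levels of 1066.8 and 1096.07 in the NCBP2 libraries and 77.55 and 59.36 in the control libraries. The 2 groups were far apart, with a difference of 3.97 ± 0.24 (SE, n = 2 each) on the log2(level + 1) scale. Each SE given here is moderated, that is drawn towards a spread pooled over the 38 genes. It is therefore not the spread of that gene's own libraries, which the residual SD describes. The unit of the levels is not named in the table, and whether they are scaled by gene length is not stated, so levels are compared between libraries and not between genes. Depth per library is unknown. None of 18 marker genes fixed for colorectal epithelium, endothelium, fibroblasts, leukocytes and retina is among the 38 genes, so the labelled cell type could not be checked here.

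LIPG, the lipase, had levels of 5.58 and 3.39 in the NCBP2 libraries, against 3.61 and 2.52 in the control libraries. NCBP2 library 2 was lower than control library 1, so the groups overlapped. Of the 4 ratios of an NCBP2 library to a control library, the lowest was 0.939 and the highest 2.21. The gap between the 2 NCBP2 libraries (1.65-fold) was larger than the ratio of the group means (1.46). The difference was 0.42 ± 0.31 (moderated SE) on the log2(level + 1) scale, and the gap between the NCBP2 libraries was 0.58. The residual SD of LIPG itself was 0.35. Without NCBP2 library 1 the difference was 0.12, and without NCBP2 library 2 it was 0.71. Without control library 1 it was 0.61 and without control library 2 it was 0.22. The lone library left in a group has no spread of its own, so no SE is given for these differences. The size of the LIPG difference therefore depended on which library of either group was used.

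LRP1B, the receptor, had levels of 0.94 and 1.06 in the NCBP2 libraries, against 0.42 and 0.35 in the control libraries. Both NCBP2 libraries lay above both controls, and the libraries of each group were close to each other. The ratios of single libraries ran from 2.24 to 3.03, around a ratio of means of 2.60. The difference on the log2(level + 1) scale was 0.53 ± 0.20 (moderated SE), and the wider gap between libraries of a group was 0.087. The residual SD of LRP1B itself was 0.057, well below the moderated SE. All 4 levels are near or below 1, so the added 1 compresses this difference. With 0.1 added in place of 1 it was 1.18 ± 0.43 (SE).

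RDH5, the retinol dehydrogenase, had levels of 8.55 and 6.07 in the NCBP2 libraries, against 2.36 and 2.49 in the control libraries. Both NCBP2 libraries were well above both controls, and most of the spread lay between the NCBP2 libraries. Single-library ratios ran from 2.44 to 3.62, with a ratio of means of 3.01. The difference was 1.26 ± 0.25 (moderated SE) on the log2(level + 1) scale, and the gap between the NCBP2 libraries was 0.43. The residual SD of RDH5 itself was 0.22. Of the 3 genes, RDH5 had the largest ratio of mean levels and LIPG the smallest.

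**Figure D2:**
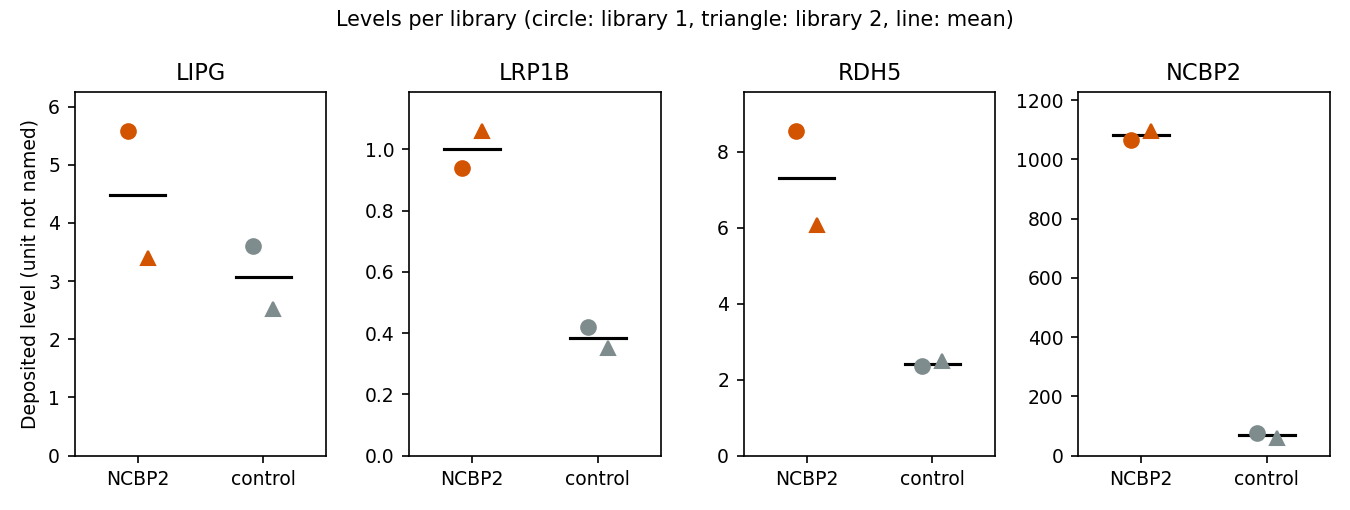
Deposited level of LIPG, LRP1B, RDH5 and NCBP2 in each library, on a linear axis from 0 with its own scale per gene. Circles are library 1, triangles library 2 and horizontal lines the mean of 2 libraries. The groups overlap for LIPG (NCBP2 library 2 at 3.39, control library 1 at 3.61) and do not for the other genes shown.

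Of the 3 genes, LRP1B and RDH5 had both NCBP2 libraries above both controls, where 86.8% of the 38 listed genes had this order. The list was selected as higher on the same libraries, so this share says nothing about LRP1B or RDH5 in particular. The ratio of mean levels was at least 2 for LRP1B and RDH5 and below 2 for LIPG, compared with 83.9% of the 31 listed genes with a control mean above 0 reaching 2. For LIPG the wider gap between libraries of a group was 1.40 times the group difference on the log2(level + 1) scale, and such an excess occurred in 21.1% of the 38 genes. The corresponding quotient was 0.163 for LRP1B and 0.344 for RDH5. Over the 38 genes the median difference was 0.69 on that scale, which lies above the values of LIPG and LRP1B and below that of RDH5.

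**Figure D3:**
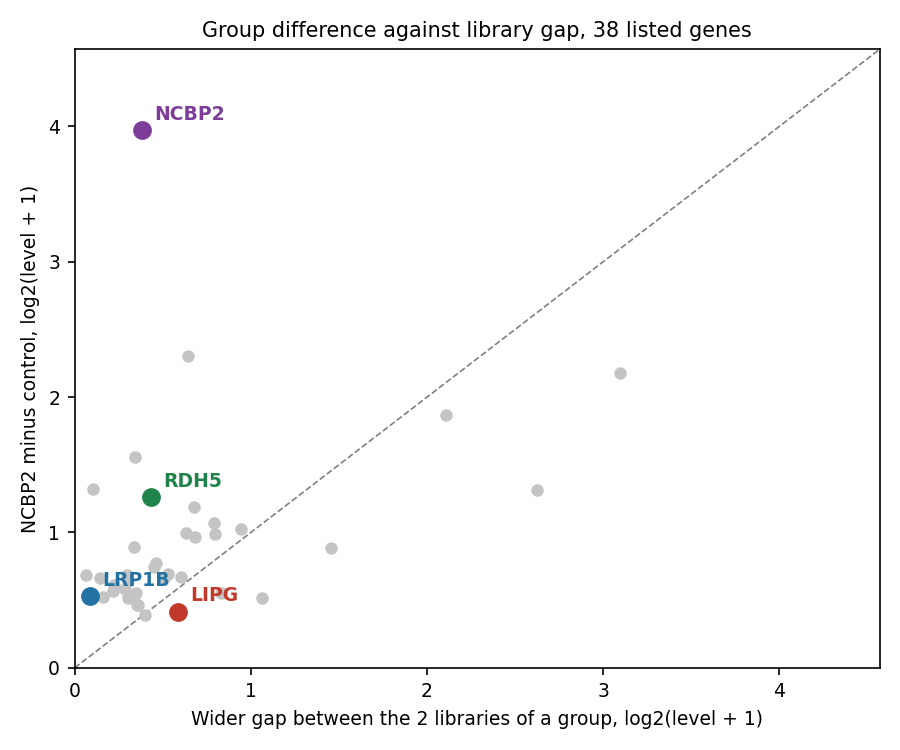
Difference between group means (NCBP2 minus control, vertical) against the wider of the 2 gaps between libraries of a group (horizontal), both on the log2(level + 1) scale, for the 38 listed genes. Points below the dashed line have a library gap larger than the group difference. LIPG lies below the line (0.58 against 0.42), LRP1B and RDH5 lie above it.

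The authors' own statistics ranked the genes differently. The authors' deposited table gives fold changes of 3.24 for LRP1B, 2.56 for LIPG and 2.11 for RDH5, whereas by ratio of mean levels RDH5 came before LRP1B and LIPG last. The p-value in the authors' deposited table was 6.36e-05 for LRP1B, with an adjusted value of 0.0707. For LIPG the authors' deposited table gives a p-value of 0.00109 and an adjusted value of 0.432, and for RDH5 a p-value of 0.0107 and an adjusted value of 0.978. By the authors' deposited table, 0 of the 3 genes passed at an adjusted p of 0.05, where 7.89% of the 38 genes did. That share includes the overexpressed gene NCBP2 itself. RDH5, with the largest ratio of mean levels, thus had the largest p-value of the 3. The smallest fold in the authors' deposited table was 2.01 and the largest p-value 0.0495, so RDH5 was just inside the fold range of the list, and LRP1B and LIPG were further inside.

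The fold changes in the authors' deposited table lay outside the range that any pairing of an NCBP2 with a control library gives, for all 3 genes. For LIPG the deposited fold of 2.56 was above the highest of the 4 library ratios, 2.21. For LRP1B it was above as well, at 3.24 against a highest ratio of 3.03. For RDH5 it was below, at 2.11 against a lowest ratio of 2.44. Allowing for the rounding of the levels to 0.01 moved these bounds only to 2.22, 3.09 and 2.43, so all 3 folds still lay outside. Among the 28 listed genes with both controls above 0, 32.1% had a deposited fold outside all 4 ratios, 4 above and 5 below.

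The direction of the mismatch differed between genes. To bring the deposited fold within the library ratios, the ratios would have to be multiplied by 1.16 to 2.72 for LIPG and by 1.07 to 1.45 for LRP1B, but by 0.582 to 0.864 for RDH5. The ratios would thus have to be raised for LIPG and LRP1B and lowered for RDH5. NCBP2 resembled RDH5, with a fold of 5.24 in the authors' deposited table below a lowest library ratio of 13.8. Over the 31 genes with a control mean above 0, the deposited fold divided by the ratio of means had a median of 0.974, and it was 1.75 for LIPG, 1.25 for LRP1B and 0.699 for RDH5. The sources used here do not say how the authors' fold was computed, and the cause of the mismatch was not tested.

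**Figure D4:**
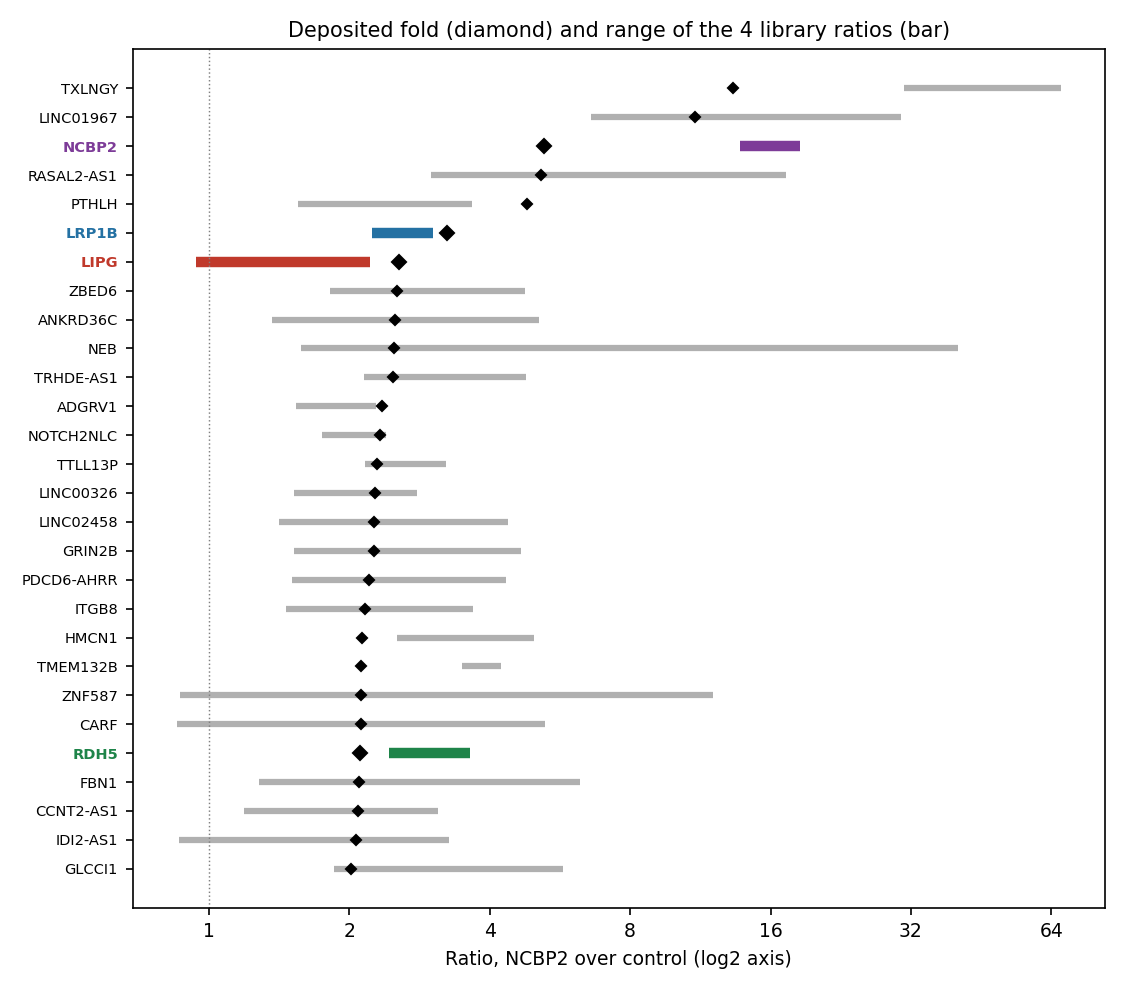
Fold change of the authors' deposited table (diamonds) and the range of the 4 ratios of an NCBP2 library to a control library (bars), on a log2 axis, for the 28 listed genes with both controls above 0, in order of deposited fold. The diamond lies right of the bar for LRP1B (3.24 against at most 3.03) and LIPG (2.56 against at most 2.21) and left of it for RDH5 (2.11 against at least 2.44).

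Across the 4 libraries the order within groups differed between the 3 genes. Control library 2 was below control library 1 for LIPG and LRP1B, as for 28 of the 30 listed genes in which the controls differed. RDH5 went the other way, with 2.36 in control library 1 and 2.49 in control library 2, which 5.26% of the 38 genes did. NCBP2 library 1 was above NCBP2 library 2 for LIPG and RDH5, as for 15 of the 38 genes, and below it for LRP1B.

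Likeness was measured as the distance between profiles of log2(level + 1) over the 4 libraries, each centred on its mean. The genes of the table closest to LIPG were the antisense RNA CCNT2-AS1 (distance 0.253), the fibrillin gene FBN1 (0.301) and ITIH3 (0.355). CCNT2-AS1 had levels of 4.49 and 2.61 in the NCBP2 libraries and 2.20 and 1.45 in the control libraries, with the same order of libraries within each group as LIPG. Closest to LRP1B were NOTCH2NLC (0.128), RASAL2-AS1 (0.146) and TTLL13P (0.147), and closest to RDH5 were the readthrough BLOC1S5-TXNDC5 (0.244), HMCN1 (0.406) and LINC01967 (0.554). Among the 3 genes, LIPG and LRP1B were 0.536 apart, LRP1B and RDH5 0.825, and LIPG and RDH5 0.909. The median distance to the other listed genes was 0.731 for LIPG, 0.545 for LRP1B and 0.825 for RDH5, so LIPG and LRP1B were nearer to each other than either median and LIPG and RDH5 were farther apart. BLOC1S5-TXNDC5 had levels of 1.59 and 1.41 in the NCBP2 libraries and 0 in both control libraries. ITIH3 had 0.59 and 0.29 in the NCBP2 libraries, also with 0 in both controls. The added 1 compresses differences at such low levels, so a short distance does not mean a like fold change. With 4 libraries and levels rounded to 0.01, such distances are a description.

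Other genes of the same pathways were sought in the table. Of 25 genes of lipases and lipoprotein handling, such as LPL, LIPC, LIPE, ANGPTL4, CETP and ABCA1, LIPG was the only one in the table. RDH5 was the only one of 35 retinoid genes, which included other retinol dehydrogenases such as RDH10 and RDH11, the retinaldehyde dehydrogenases ALDH1A1 to ALDH1A3 and the retinoic acid receptors. Neither LIPG nor RDH5 passed the authors' adjustment in the authors' deposited table. The remaining genes of these lists were not among the 38, and their levels were not analysed here. The table holds only genes marked significant and up, so the share over all genes tested cannot be set beside these counts. The counts therefore do not show whether LIPG or RDH5 changed alone among the genes of its list. BLOC1S1-RDH5, which shares exons with RDH5, was not among the 38 genes either.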

How the data were processed

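The data are RNA sequencing results of 4 HCT116 libraries. The deposited levels are expression signal values per library and group mean, rounded to 0.01, in a unit the table does not name. Per the file headers, the authors also gave a fold change (a linear ratio of NCBP2 over control) with its log2 and a p-value with its adjusted form, by a tool that the sources used here do not name. Bowtie 0.12.2 and mm9, a mouse build, are named in the submitters' processing notes, while the identifiers are human. The labels name different sequencers, in the library protocol and in the design text, so the platform is uncertain. EV columns were taken as the PCDH control and were not tied to single samples.

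Differences and moderated standard errors came from limma 3.58.1 (R 4.3.3) on log2(level + 1) over all 38 genes, with no replicate block. Fold changes on this scale understate those of low genes. The fit was also run on simulated data with raised levels and the same spread for every gene. That run does not cover levels as low as those of LRP1B or spreads that differ between genes. No p-value was computed, because the genes were selected on this comparison. The 3 genes, the gene lists and the rule for neighbours (the 3 nearest profiles) were chosen with earlier results of these data known, and the count for 1 further gene list is not reported here. Positions, transcripts and overlaps came from GENCODE 29 on GRCh38, matched by Ensembl identifier for all 3 genes, and the transcript used was the principal one of greatest length. Alternatives were a pseudocount of 0.1, a mean level of at least 1, a replicate block, the deposited fold, a fit without NCBP2 and leaving out each library.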

Additional observations from a re-analysis of the deposited data

How the results depend on the processing

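The differences, on the log2(level + 1) scale unless another is named, kept their direction under every alternative run. For LRP1B, RDH5 and NCBP2 this was fixed in advance for the runs on the levels, because both NCBP2 libraries lay above both controls. The deposited folds could not reverse it either, because every listed gene is marked up. The kept direction is therefore no support for these differences. When single libraries were left out, the difference lay between 0.12 and 0.71 for LIPG, 0.49 and 0.57 for LRP1B, 1.05 and 1.48 for RDH5 and 3.78 and 4.16 for NCBP2, and 2 to 3 of the 3 genes had separate groups, a count that leaving out libraries can only keep or raise. With a pseudocount of 0.1 the difference was 1.18 for LRP1B and 1.53 for RDH5. Each moved by more than the residual SD of the gene on the log2(level + 1) scale, 0.057 for LRP1B and 0.22 for RDH5, although the move for RDH5 was smaller than the gap of 0.43 between its NCBP2 libraries. The added constant weighs most on low levels. The log2 fold of the authors' deposited table was 1.35 for LIPG, 1.70 for LRP1B and 2.39 for NCBP2, each also farther from the difference of levels than that SD, and the cause was not tested. The filter at a mean level of 1 removed LRP1B, which left 1 gene with separate groups. With that filter the difference stayed the same for LIPG, RDH5 and NCBP2, but each moderated SE rose. It was 0.40 for LIPG, 0.38 for RDH5 and 0.38 for NCBP2, against 0.31, 0.25 and 0.24 over all 38 genes. A replicate block by the library number cannot move a difference in this balanced design, which stayed at 0.42 for LIPG, 0.53 for LRP1B, 1.26 for RDH5 and 3.97 for NCBP2, and the standard error for LIPG became 0.21, against 0.31 without the block. Over the 38 genes, deviations from the group mean correlated at -0.17 between libraries with the same number, so whether the numbers pair the libraries cannot be told. Widening the ratios by rounding, chosen after seeing the data, left all 3 deposited folds outside. With no depth per library, the reads behind the low LRP1B levels cannot be estimated.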
